A study of Mus musculus with 9 samples.

Results

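The decision of a cell to start a new division cycle is taken in G1, and the genes examined here encode the proteins that push a cell through this phase or hold it there. They are the D cyclins Ccnd1, Ccnd2 and Ccnd3, the E cyclins Ccne1 and Ccne2, the cyclin-dependent kinase (CDK) inhibitors Cdkn1a, Cdkn1b, Cdkn1c and Cdkn2c, and Myc. These 10 genes were taken by name from the 54532 genes of the deposited table. A filter on low counts left 14004 genes to test, 9 of the members among them, and Cdkn1c had no count in any library.

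D cyclins are made in response to growth factors and activate CDK4 and CDK6, which begin to phosphorylate the retinoblastoma protein. E cyclins then activate CDK2, the retinoblastoma protein lets go of E2F transcription factors, and the genes of DNA synthesis are switched on. The inhibitors p21 (Cdkn1a), p27 (Cdkn1b) and p57 (Cdkn1c) bind cyclin and kinase together, p18 (Cdkn2c) binds CDK4 and CDK6 alone, and MYC is a transcription factor of cell growth that is known to raise D cyclins and E2F factors and to repress Cdkn1a. In cells of the osteoblast lineage, Ccnd1 and Myc are often named as genes that β-catenin can activate.

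RNA was taken from ST2 cells, a stromal line from mouse bone marrow that is labelled as wild type and as a mesenchymal stem cell, after 72 h with vehicle, with rhWnt3a (recombinant human Wnt3a protein, 50 ng/ml), or with rhWnt3a and OSMI (20 μM), an inhibitor of the enzyme OGT that attaches O-GlcNAc to proteins. Each group had 3 libraries. The group with rhWnt3a and OSMI was named from the sample titles, while its treatment label names OSMI alone and gives no dose of rhWnt3a, and no group with OSMI alone was analysed here. The same cell line was used throughout, and the study calls its 3 samples a group biological replicates without saying how they were grown apart.

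The libraries held 16135898 to 17583945 counts. Of 12 stromal markers, 10 or 11 were above 3 counts in every group, Thy1 reached 4 counts at most and Sp7 2, and the summed counts of 8 blood cell markers were 6 to 35 a library. The summed counts of the stromal markers were 366146 to 428900 with vehicle, 305196 to 339318 with rhWnt3a and 154870 to 296784 with rhWnt3a and OSMI, and the part of this in the levels of the members was not tested. Of the 10 stromal markers tested, Twist1 (log2 fold change 1.04) and Prrx1 (0.88) rose and Cxcl12 (−2.31) fell with rhWnt3a, Col3a1 (−1.99) fell with OSMI added, and between both treatments and vehicle Twist1 (0.69) and Prrx1 (0.82) rose and Col3a1 (−2.19), Cxcl12 (−1.89) and Col1a1 (−1.31) fell. In every group a single library (vehicle replicate 3, rhWnt3a replicate 2, OSMI replicate 3) lay apart: its mean squared log2 difference from the others was 0.376 to 0.459, and that between the others 0.111 to 0.119. Counts of members are therefore also given without these 3 libraries. Axin2, a feedback gene of Wnt signaling, had 4 to 14 counts with vehicle, 296 to 355 with rhWnt3a and 185 to 297 with rhWnt3a and OSMI.

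Levels are given below as CPM (counts scaled to library size), and, where a gene is compared with another, as RPKM (CPM divided by gene length). The deposited length counts all annotated exon bases of a gene: 8775 for Ccnd3, 9409 for Ccnd2 and 4709 for Ccnd1. Their longest transcripts have 3858, 6330 and 3740 bases. Orders and shares between genes depend on this choice, and they were not computed with transcript lengths. A gene was called when the Benjamini-Hochberg adjusted p of a two-sided edgeR quasi-likelihood test over all 14004 genes was under 0.05 and the log2 fold change was beyond 0.5 in size. With 3 libraries against 3, an exact permutation of a single gene cannot give a p below 0.1, so each call borrows its error from the fit across genes. In bulk RNA a lower level in every cell and fewer cells with that RNA cannot be told apart.

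None of the 9 members was called with rhWnt3a against vehicle, where 8.78% of all tested genes were. A single member, Ccnd3, was called when OSMI was added to rhWnt3a, against 4.74% of all genes, and none was called between rhWnt3a with OSMI and vehicle, against 14.2% of all genes. At an unadjusted p under 0.05 with any fold, 0, 6 and 6 of the 9 members passed in these comparisons, beside 19.9%, 22.6% and 30.3% of all genes. With the fold threshold on top, 0, 5 and 2 passed, beside 15.4%, 16.2% and 22.8%, and at an adjusted p under 0.05 with any fold 0, 1 and 2 passed, beside 8.98%, 4.78% and 15.3%. Without the 3 libraries that lay apart, 1 member (Ccne1), 1 (Ccnd3) and 4 (Ccnd2, Ccne1, Cdkn1b and Myc) were called, beside 18.1%, 12.7% and 23.7% of the 14111 genes then tested.

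Groups did not overlap at all (every library of one above, or every one below, the libraries of the other) for 2 of 9 members with rhWnt3a against vehicle, beside 26.4% of all tested genes. With OSMI added to rhWnt3a this held for 8 of the 9 members (88.9%), beside 33.7% of all genes: Ccnd1, Ccnd2 and Myc lay higher, and Ccnd3, Ccne2, Cdkn1a, Cdkn1b and Cdkn2c lay lower. Against vehicle, the OSMI libraries lay apart for 6 members (66.7%), beside 38.8% of all genes, with Ccnd1 and Ccnd2 higher and Ccnd3, Ccne2, Cdkn1b and Cdkn2c lower. The median log2 fold change of the members was 0.12, −0.33 and −0.31 in the 3 comparisons, and that of all tested genes was 0.04, −0.01 and −0.01. The comparisons share libraries, so their values are set side by side without a test of one against another.

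**Figure D1:**
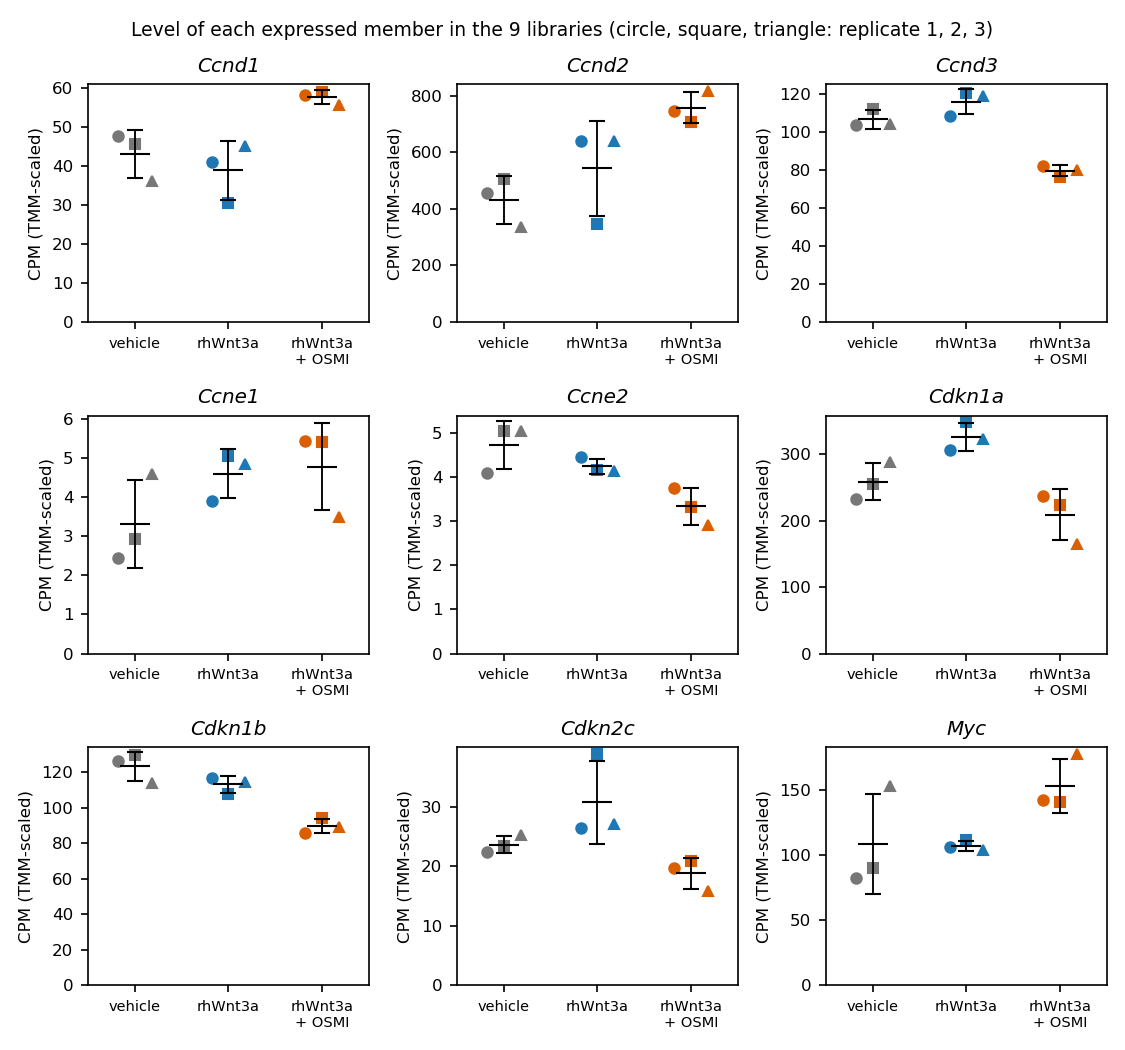
CPM of each expressed member (y axis, TMM-scaled counts, from 0) in the 3 groups, with a point per library (circle, square and triangle for replicates 1, 2 and 3) and bars for the mean ± SD. The OSMI libraries of Ccnd3 (76.4 to 82.1 CPM) and Cdkn1b (85.9 to 93.8 CPM) sit below all 6 others, while those of Ccnd1 (55.7 to 59.1 CPM) and Ccnd2 (707 to 815 CPM) sit above them.

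Among the D cyclins, Ccnd2 was the highest by far, and Ccnd3 alone was called. Ccnd3 (ENSMUSG00000034165, chromosome 17, 47505051 to 47599691 on the plus strand of GRCm38, the build of all coordinates here) encodes the D cyclin with the widest expression across tissues. It stood at 104, 112 and 104 CPM with vehicle, at 108, 121 and 119 CPM with rhWnt3a, and at 82.1, 76.4 and 80.0 CPM with rhWnt3a and OSMI. The OSMI libraries were thus below all of the others, and vehicle and rhWnt3a overlapped. Ccnd3 fell by 0.54 on the log2 scale when OSMI was added to rhWnt3a (SE 0.11, edgeR adjusted p = 0.0234), a level 1.46-fold lower. Against vehicle its log2 difference of −0.42 (SE 0.11, edgeR adjusted p = 0.0281) passed the test but not the fold threshold.

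The call of Ccnd3 lay close to both thresholds. It was lost in 11 of 18 alternative ways of processing, in which the log2 difference stayed between −0.58 and −0.48, and it was lost when any single library but vehicle replicate 3 or OSMI replicate 3 was left out (edgeR adjusted p from 0.0525 to 0.117). Bysl, which shares 4.11% of the exon bases of Ccnd3 on the opposite strand, had a log2 difference of 0.0006 between rhWnt3a with OSMI and rhWnt3a (edgeR adjusted p = 0.998). Sequence at least 97% identical in 6 other genes covers 3.66% of the longest Ccnd3 transcript.

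Ccnd2 (ENSMUSG00000000184, chromosome 6, 127125162 to 127152193, minus strand), a D cyclin that MYC and growth factors are known to induce, had the highest CPM of the members. Its libraries held 454, 504 and 337 CPM with vehicle, 639.8, 347 and 641 CPM with rhWnt3a, and 747, 707 and 815 CPM with rhWnt3a and OSMI. The OSMI libraries lay above all others, and the lowest library of the vehicle and of the rhWnt3a group was the one that lay apart from its group. The mean was 432 ± 85.9 CPM (SD, n = 3) with vehicle and 756 ± 54.9 CPM (SD, n = 3) with rhWnt3a and OSMI, a log2 difference of 0.81 (SE 0.25) that did not pass the test (edgeR adjusted p = 0.0519). It was called in 6 of 18 alternatives, among them leaving out rhWnt3a replicate 2 (0.83, edgeR adjusted p = 0.0113) and leaving out all 3 libraries that lay apart (0.56, edgeR adjusted p = 1.4e-06). With rhWnt3a alone the log2 difference from vehicle was 0.33 (SE 0.24, edgeR adjusted p = 0.553), and with OSMI added to rhWnt3a it was 0.48 (SE 0.24, edgeR adjusted p = 0.274). Both values turned on single libraries. The first was 0.57 without rhWnt3a replicate 2, 0.20 without rhWnt3a replicate 3, 0.22 without rhWnt3a replicate 1 and 0.18 without vehicle replicate 3, and it was 0.38 without the 3 libraries that lay apart, where it passed the test (edgeR adjusted p = 0.00016) but not the fold threshold. The second was 0.26 without rhWnt3a replicate 2 and 0.18 without the 3 libraries that lay apart.

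Ccnd1 (ENSMUSG00000070348, chromosome 7, 144929931 to 144939925, minus strand), the D cyclin most often linked to β-catenin, was not called in any comparison. Its libraries held 47.7, 45.5 and 36.1 CPM with vehicle, 41.0, 30.6 and 45.0 CPM with rhWnt3a, and 58.3, 59.1 and 55.7 CPM with rhWnt3a and OSMI. Vehicle and rhWnt3a overlapped, and each OSMI library was higher than each of the other 6. The log2 difference was −0.15 (SE 0.17, edgeR adjusted p = 0.732) with rhWnt3a and 0.57 (SE 0.17, edgeR adjusted p = 0.0839) with OSMI added to it, a value that DESeq2 put past the threshold (0.58, adjusted p = 0.0278). Over 18 alternatives the latter ran from 0.44 to 0.69, with adjusted p down to 0.00026 (edgeR or DESeq2), and only DESeq2 called it. Of the exon bases of Ccnd1, 23.4% overlap Oraov1 (LTO1 in the annotation) on the other strand, which had 239 to 433 counts a library and a log2 difference of 0.45 in the same comparison (edgeR adjusted p = 0.120). The strand setting of the counting is not given in the sources used here, so reads of this stretch cannot be given to one gene.

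Per length, Ccnd2 made up most of the D cyclin RNA in all 3 groups, as the plot of cyclin shares shows. Its share of the summed RPKM of the 3 D cyclins was 68.0 ± 2.94% (SD, n = 3) with vehicle, 71.9 ± 6.38% with rhWnt3a and 79.0 ± 1.36% with rhWnt3a and OSMI. The share of Ccnd3 was 16.8%, 16.8% and 21.4% in the vehicle libraries, 13.9%, 24.1% and 14.9% in the rhWnt3a libraries, and 9.26%, 9.04% and 8.48% in the OSMI libraries, so that with OSMI it lay below every other library. The share of Ccnd1 ranged from 9.77% to 14.4% over the 9 libraries. The summed level was 67.2 ± 10.7 RPKM with vehicle, 79.1 ± 19.1 RPKM with rhWnt3a and 102 ± 5.64 RPKM with both, and the libraries with both were the highest 3. Shares and sums rest on the deposited lengths, and no test was run on them.

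**Figure D2:**
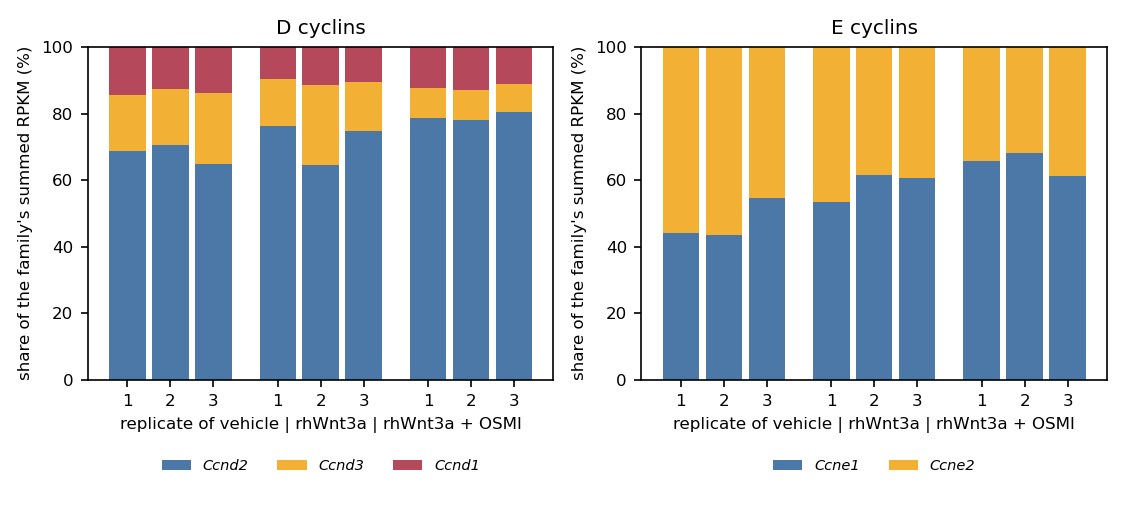
Share (y axis, % of the summed RPKM of the family) of each D cyclin (left) and each E cyclin (right) in every library, with replicates 1 to 3 of vehicle, rhWnt3a, and rhWnt3a + OSMI from left to right. The Ccnd3 segment is thinnest in the OSMI libraries (8.48% to 9.26%), and the Ccne1 segment covers 43.3% to 54.4% with vehicle and 61.2% to 68.0% with rhWnt3a and OSMI.

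The E cyclins were the lowest of the expressed members, with 40 to 94 counts a library. Ccne1 (ENSMUSG00000002068, chromosome 7, 38097984 to 38107534, minus strand) stood at 2.44, 2.93 and 4.58 CPM with vehicle, at 3.89, 5.06 and 4.84 CPM with rhWnt3a, and at 5.44, 5.39 and 3.49 CPM with rhWnt3a and OSMI. All 3 groups overlapped, and 2 of the libraries that lay apart set this overlap: vehicle replicate 3 was the highest of its group and OSMI replicate 3 the lowest of its own. The log2 differences were 0.47 (SE 0.28, edgeR adjusted p = 0.437) for rhWnt3a against vehicle, 0.05 (SE 0.28, edgeR adjusted p = 0.920) for OSMI added, and 0.52 (SE 0.28, edgeR adjusted p = 0.246) for both against vehicle. The first of these was 0.29 without vehicle replicate 1 and 0.78 without vehicle replicate 3, and the last was 0.83 without vehicle replicate 3. Without the 3 libraries that lay apart, Ccne1 was called with rhWnt3a against vehicle (0.67, edgeR adjusted p = 0.0375) and with both against vehicle (0.97, edgeR adjusted p = 0.0022).

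Ccne2 (ENSMUSG00000028212, chromosome 4, 11191351 to 11204779, plus strand), the second E cyclin, also had few counts and was not called. It stood at 4.09, 5.03 and 5.03 CPM with vehicle, at 4.44, 4.15 and 4.12 CPM with rhWnt3a, and at 3.75, 3.33 and 2.91 CPM with rhWnt3a and OSMI. The OSMI libraries were below all others, but the log2 difference from vehicle was −0.50 (SE 0.19, edgeR adjusted p = 0.109) and that from rhWnt3a −0.35 (SE 0.19, edgeR adjusted p = 0.310). Ints8 shares 17.4% of the exon bases of Ccne2 on the opposite strand. Of the summed RPKM of both E cyclins, Ccne1 made up 47.2 ± 6.25% (SD, n = 3) with vehicle, 58.6 ± 4.40% with rhWnt3a and 64.9 ± 3.48% with rhWnt3a and OSMI, while the sum stayed between 2.59 and 2.94 RPKM in the group means.

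The 3 expressed members among the CDK inhibitors had lower values with OSMI than with rhWnt3a alone, in each case without overlap of the libraries, and none of these differences passed the test. Cdkn1a (ENSMUSG00000023067, chromosome 17, 29090976 to 29100727, plus strand) encodes p21, the inhibitor that p53 is known to induce. Its libraries held 233, 256 and 288 CPM with vehicle, 307, 348 and 322 CPM with rhWnt3a, and 238, 223 and 165 CPM with rhWnt3a and OSMI. The rhWnt3a libraries were thus above both other groups, and those of vehicle and of OSMI overlapped. The log2 difference was 0.33 (SE 0.16, edgeR adjusted p = 0.301) with rhWnt3a and −0.64 (SE 0.16, edgeR adjusted p = 0.0536) with OSMI added to it, and between both treatments and vehicle it was −0.31 (SE 0.16, edgeR adjusted p = 0.227), or −0.17 without OSMI replicate 3. In 6 of 18 alternatives the second difference was called, at −0.67 to −0.62. The first was called in none of the 18, where it ran from 0.26 to 0.42 with adjusted p down to 0.00069 (edgeR or DESeq2). AC167363.2 shares 7.68% of the exon bases of Cdkn1a on the opposite strand, and sequence near-identical to 2 other genes covers 12.6% of its longest transcript.

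Cdkn2c (ENSMUSG00000028551, chromosome 4, 109660876 to 109667189, minus strand), the inhibitor of CDK4 and CDK6, had a like order of the groups. It stood at 22.3, 23.3 and 25.2 CPM with vehicle, at 26.4, 38.8 and 27.1 CPM with rhWnt3a, and at 19.7, 20.8 and 15.9 CPM with rhWnt3a and OSMI. No 2 groups overlapped, with rhWnt3a on top and OSMI at the bottom. Its log2 difference was 0.38 (SE 0.18, edgeR adjusted p = 0.276) with rhWnt3a, −0.71 (SE 0.18, edgeR adjusted p = 0.0539) with OSMI added, and −0.33 (SE 0.18, edgeR adjusted p = 0.251) between both treatments and vehicle. The second of these was called in 4 of 18 alternatives, DESeq2 among them (−0.71, adjusted p = 0.0098). The highest rhWnt3a value belonged to replicate 2 and the lowest OSMI value to replicate 3, both of which lay apart from their groups. Without rhWnt3a replicate 2 the first difference was 0.18, and without OSMI replicate 3 the last was −0.22. Without all 3 libraries that lay apart the differences were 0.19, −0.40 and −0.21, and the second of them passed the test (edgeR adjusted p = 0.0051) but not the fold threshold.

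Cdkn1b (ENSMUSG00000003031, chromosome 6, 134920401 to 134925513, plus strand) encodes p27, which is known to accumulate in resting cells, mostly by slower breakdown of the protein. It stood at 126, 129.8 and 114 CPM with vehicle, at 117, 108 and 114 CPM with rhWnt3a, and at 85.9, 93.8 and 89.3 CPM with rhWnt3a and OSMI. Vehicle and rhWnt3a overlapped and the OSMI libraries were below all of them. The log2 difference between both treatments and vehicle was −0.46 (SE 0.11, edgeR adjusted p = 0.0211), past the test and under the fold threshold, and that between OSMI added and rhWnt3a was −0.33 (SE 0.11, edgeR adjusted p = 0.118). Without vehicle replicate 3 the first of these was −0.51 (edgeR adjusted p = 0.0178) and was called.

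Cdkn1c (ENSMUSG00000037664, chromosome 7, 143458339 to 143461050, minus strand), an imprinted gene that encodes p57, had 0 counts in all 9 libraries, which allows a level of up to 0.169 to 0.191 CPM a library, the worth of 3 counts. Further inhibitors of CDK4 and CDK6, Cdkn2a and Cdkn2b, also had 0 counts in all 9 libraries. The related Cdkn2d had 33 to 115 counts and was not called in any comparison (log2 difference 0.28, −0.40 and −0.11). Of the inhibitors examined, transcripts of Cdkn1a, Cdkn1b, Cdkn2c and Cdkn2d were thus found in these cells, along with few counts (2 to 25) of Cdkn3, a phosphatase that acts on CDKs.

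The sequences before the start sites of Ccnd3, Cdkn1a and Cdkn1b are shown because all OSMI libraries of these members lay below the rhWnt3a libraries and their start sites are in the RefSeq promoter table (GRCm38.p6), which held 5 of the 10 members. The same is true of Cdkn2c, whose windows are not printed. Its window at 109666756 is all annotated exon, and the 13 exon bases in that at 109665372 do not all lie next to the start. Each printed sequence is given on the plus strand, 5′ to 3′, without bases of annotated exons. Capitals in Ccnd3 and Cdkn1b mark GGGCGG on either strand, the core of the site that SP1 binds, and capitals in Cdkn1a mark 2 copies of CATG spaced 6 bases apart, the core of the site that p53 binds, which lies 48 bases before the start at 29090979. Ccnd3 and Cdkn1a each have a further start in the promoter table, at 47593467 and 29093769, whose windows are not printed. That of Ccnd3 holds GGGCGG at 1 position. That of Cdkn1a holds it at 2 positions and lacks the spaced pair of CATG.
Ccnd3, chr17:47504801-47505050: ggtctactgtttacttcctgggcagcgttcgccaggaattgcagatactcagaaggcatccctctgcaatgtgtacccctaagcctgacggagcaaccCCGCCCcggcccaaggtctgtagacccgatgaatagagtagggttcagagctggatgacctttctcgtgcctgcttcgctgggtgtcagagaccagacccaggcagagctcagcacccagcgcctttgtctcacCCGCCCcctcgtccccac
Cdkn1a, chr17:29090729-29090975: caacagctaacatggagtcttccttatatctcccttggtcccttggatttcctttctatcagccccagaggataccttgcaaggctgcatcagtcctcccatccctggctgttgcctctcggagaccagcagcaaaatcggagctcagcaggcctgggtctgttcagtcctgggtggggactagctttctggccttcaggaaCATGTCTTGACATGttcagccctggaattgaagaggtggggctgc
Cdkn1b, chr6:134920151-134920400: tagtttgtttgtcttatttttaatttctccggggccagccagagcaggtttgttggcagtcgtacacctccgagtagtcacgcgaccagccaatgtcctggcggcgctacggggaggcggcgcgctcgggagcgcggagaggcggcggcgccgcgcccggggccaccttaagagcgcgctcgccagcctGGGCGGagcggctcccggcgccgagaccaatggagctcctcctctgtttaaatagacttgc
Among 32851 promoters of the table, 32.7% held GGGCGG within the 250 bases before the start and 0.49% held the spaced pair of CATG. TTTGGCGC or TTTCGCGC (the E2F site, 0.654% of promoters), CACGTG (the E-box of MYC, 6.02%) and CTTTGAT or CTTTGAA (the site of TCF and LEF factors, 7.48%), searched on both strands, were not found in these letters in any of the 8 windows of the 5 members. A match describes the sequence and does not show that a factor binds there.

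Myc (ENSMUSG00000022346, chromosome 15, 61985391 to 61990374, plus strand) was not called in any comparison, although it is often listed as a target of Wnt signaling. It stood at 82.8, 90.6 and 153 CPM with vehicle, at 107, 112 and 104 CPM with rhWnt3a, and at 142, 141 and 178 CPM with rhWnt3a and OSMI. The OSMI libraries were above all rhWnt3a libraries, and vehicle replicate 3, one of the libraries that lay apart, reached into their range. The log2 difference was −0.02 (SE 0.22, edgeR adjusted p = 0.981) with rhWnt3a, 0.52 (SE 0.22, edgeR adjusted p = 0.200) with OSMI added, and 0.50 (SE 0.22, edgeR adjusted p = 0.158) between both and vehicle. Without vehicle replicate 3 these were 0.31, 0.52 and 0.83, and the last 2 were called (edgeR adjusted p = 0.0497 and 0.0063). Over 18 alternatives the difference with rhWnt3a ran from −0.18 to 0.31, with adjusted p down to 0.0083 (edgeR or DESeq2). It was called in none of them.

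**Figure D3:**
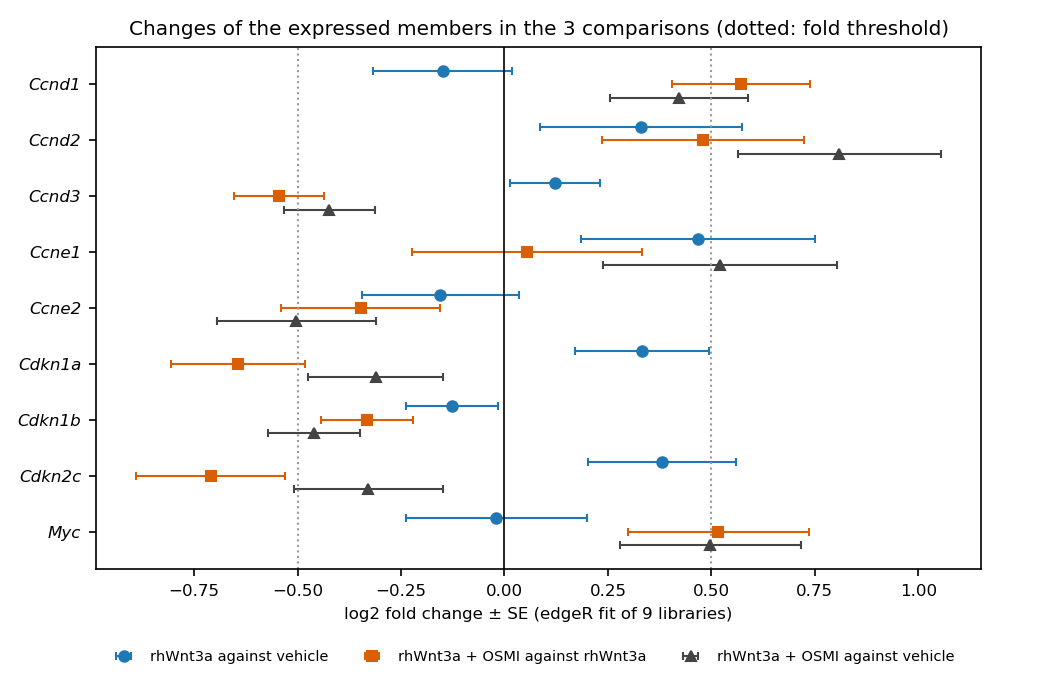
Log2 fold change ± SE (x axis, edgeR fit of 9 libraries) of the 9 expressed members for rhWnt3a against vehicle, rhWnt3a + OSMI against rhWnt3a, and rhWnt3a + OSMI against vehicle, with dotted lines at the fold threshold of 0.5. For the addition of OSMI, Ccnd1, Ccnd2 and Myc lie at 0.48 to 0.57 and Ccnd3, Cdkn1a and Cdkn2c at −0.71 to −0.54, of which only Ccnd3 was called.

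The order of the members by level differed between groups. Per length, Cdkn1a was the highest with vehicle (72.8 ± 7.72 RPKM, SD, n = 3) and with rhWnt3a (91.7 ± 5.90 RPKM), followed by Ccnd2 and Myc, whose libraries overlapped each other. With rhWnt3a and OSMI, Ccnd2 came first (80.4 ± 5.83 RPKM), followed by Cdkn1a (58.7 ± 10.8 RPKM) and Myc (56.6 ± 7.63 RPKM), which overlapped. Cdkn1b came next in each group, at 27.1, 24.8 and 19.7 RPKM. By the deposited length, Ccnd3 (12.2 RPKM) stood above Ccnd1 (9.15 RPKM) with vehicle, without overlap. It stood below Ccnd1 with rhWnt3a and OSMI (9.06 against 12.2 RPKM), also without overlap. This reversal rests on the deposited lengths, 8775 bases for Ccnd3 and 4709 for Ccnd1. Their longest transcripts are close in length (3858 and 3740 bases). By CPM, Ccnd3 stood above Ccnd1 both with vehicle (107 against 43.1) and with rhWnt3a and OSMI (79.5 against 57.7). Ccnd1 and Cdkn2c overlapped with vehicle, Ccnd3 and Cdkn2c with rhWnt3a, and Ccne1 and Ccne2 with vehicle. The E cyclins were last among the expressed members, between 0.952 and 1.79 RPKM in the group means.

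Some members followed each other across the 9 libraries, which share their depth scaling and their groups, so the coefficients are a description. Pearson's r of log2 CPM was 0.93 between Cdkn1a and Cdkn2c and 0.84 between Ccnd1 and Ccnd2, and after the group means were taken out it was 0.74 and 0.91. Cdkn2c ran opposite to Ccnd1 (r = −0.88, within groups −0.69) and to Ccnd2 (r = −0.70, within groups −0.87). Ccnd3 and Cdkn1b had an r of 0.81, which turned to −0.20 within groups. Vehicle replicate 3 and rhWnt3a replicate 2, which lay apart, held the lowest Ccnd1 and Ccnd2 of their groups and the highest Cdkn1a and Cdkn2c. OSMI replicate 3, which also lay apart, held the lowest Cdkn1a and Cdkn2c of its group. The part of these libraries in the coefficients within groups was not tested. Among 11425 genes with a mean log2 CPM above 1, those nearest in pattern to Cdkn1a were Tpi-rs11, Aldoa and Tpi1 (r = 0.99 each), of which the first is named as a related sequence of Tpi1, and those nearest to Ccnd2 were Cad, Carm1 and Supt5 (r = 0.99 each). Gja1 was nearest to Ccnd3 (r = 0.97), Fam160a2 to Ccnd1 (0.98), Sap30bp to Ccne1 (0.98), Top1mt to Ccne2 (0.95), Naalad2 to Cdkn1b (0.97), Kdelr2 to Cdkn2c (0.98) and Cdv3 to Myc (0.97).

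Among the kinases that these proteins bind, Cdk6 rose with rhWnt3a and Cdk2 and Cdk4 were not called. Of 8 genes for G1 kinases and their activation, 2 rose with rhWnt3a: Cdk6, which pairs with D cyclins, from 56.4, 45.8 and 37.4 CPM to 104, 57.5 and 100.1 CPM (log2 fold change 0.90, SE 0.24, edgeR adjusted p = 0.0428), and Cdc25a, a phosphatase that activates CDK2 (0.54, SE 0.13, edgeR adjusted p = 0.0328). Cdk6 was also higher than vehicle with rhWnt3a and OSMI (0.99, SE 0.24, edgeR adjusted p = 0.0211), and none of the 8 was called between rhWnt3a with OSMI and rhWnt3a, where 7 of them had values below 0 (median −0.23). Cdk4, the other partner of D cyclins, held 369, 401 and 538 CPM with vehicle, 381, 546 and 394 CPM with rhWnt3a, and 344, 351 and 168 CPM with both, with a log2 difference of −0.62 for OSMI added (SE 0.28, edgeR adjusted p = 0.232). In each group the library that lay apart held the extreme value of Cdk4. Cdk2, the partner of E cyclins, differed by −0.38 in that comparison (SE 0.14, edgeR adjusted p = 0.150).

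Of 17 tested RB and E2F genes none was called with rhWnt3a or with OSMI added, and 1, Tfdp2, rose between both treatments and vehicle (0.85). Rb1 differed by −0.47 with rhWnt3a (SE 0.14, edgeR adjusted p = 0.0640) and E2f1 by 0.11 (SE 0.14, edgeR adjusted p = 0.776). Of 9 tested genes of the MYC network, Mxi1, a partner of MAX that opposes MYC, rose with rhWnt3a (0.64), and Mxd1, of the same family, rose between both treatments and vehicle (0.60). None of 13 genes for the turnover of G1 proteins was called in any of the 3 comparisons. Of 20 MYC target genes, 0 were called with rhWnt3a, 1 rose with OSMI added (Nolc1, 0.64) and 4 rose between both and vehicle, led by Nolc1 (0.86), Cad (0.77) and Polr1b (0.71).

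Genes of the later phases were read beside the members. Of 11 S and M phase genes, 3 fell with rhWnt3a, by 1.91 (Mki67), 1.15 (Top2a) and 0.80 (Cdc25b) on the log2 scale, and 3 rose when OSMI was added, by 2.22 (Mki67), 1.52 (Top2a) and 1.26 (Plk1). Between both treatments and vehicle, Ccnf rose by 1.20 and Cdc25b fell by 1.01. The median of the list was −0.81, 1.25 and 0.37 in the 3 comparisons, beside the 0.12, −0.33 and −0.31 of the members. Mki67, which marks dividing cells, had 22.8, 17.6 and 7.91 CPM with vehicle, 4.38, 2.33 and 6.16 CPM with rhWnt3a, and 22.3, 21.4 and 16.1 CPM with rhWnt3a and OSMI. Of 20 E2F target genes of S phase, 2 rose with rhWnt3a and fell with OSMI added: Mcm2 (0.84, then −0.62) and Mcm4 (0.54, then −0.68). Of all tested genes, 8.78% and 4.74% were called in these comparisons, in either direction. Both genes encode subunits of the replication helicase, and the other subunits of it in the list were not called. None of the 20 was called between both treatments and vehicle. These markers moved in the same libraries as the members, and their part in the levels of the members was not tested.

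**Figure D4:**
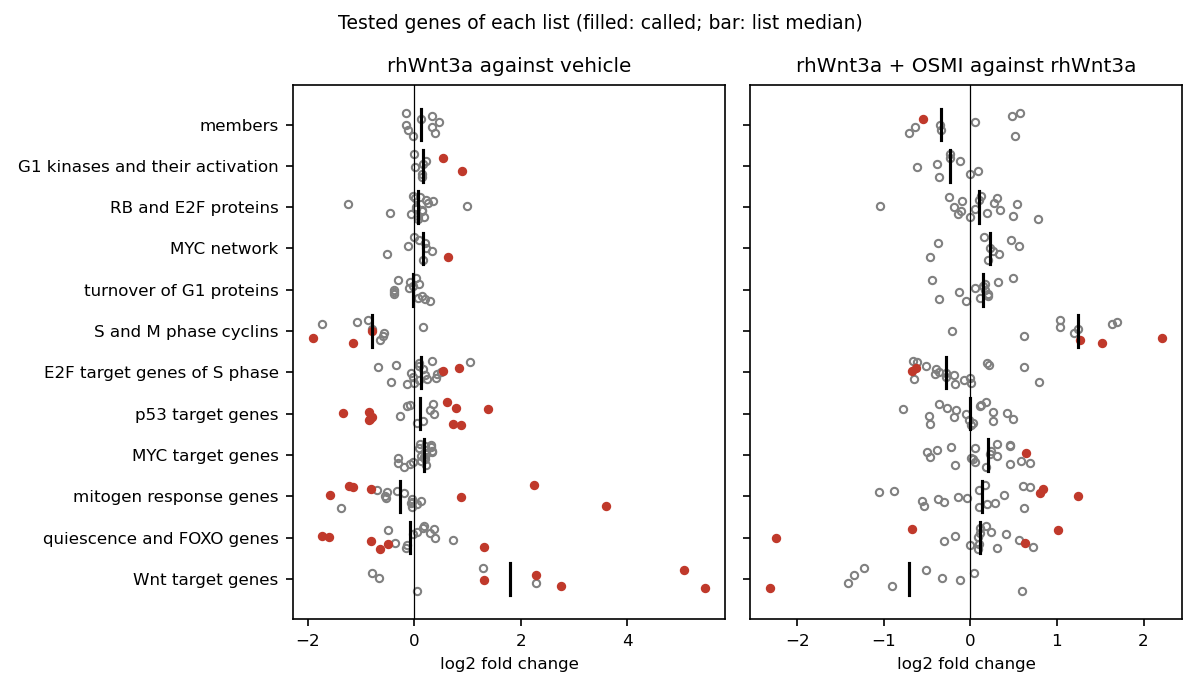
Log2 fold change (x axis) of each tested gene of the members and of 11 related lists, for rhWnt3a against vehicle (left) and rhWnt3a + OSMI against rhWnt3a (right), with filled points for called genes and a bar at each list's median. The S and M phase genes have medians of −0.81 and 1.25 in the 2 panels, and the members of 0.12 and −0.33. In the right panel, 6 of the 11 S and M phase genes lay higher without overlap of the libraries, while 33.7% of all genes lay higher or lower without overlap.

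Of 18 tested p53 target genes, which Cdkn1a is often grouped with, 5 rose and 5 fell with rhWnt3a, led in size by Eda2r (1.39), Gdf15 (−1.35) and Zmat3 (0.89). None was called when OSMI was added, and Cdkn1a, which had its largest difference there, was not called either. The log2 differences of the 18 genes then ran from −0.77 to 0.49, with 9 above and 9 below 0. Between both treatments and vehicle 2 rose and 3 fell, led by Plk2 (−0.99), Gdf15 (−0.92) and Zmat3 (0.90). Mdm2, the p53 target that feeds back on p53, differed by 0.36 with rhWnt3a (SE 0.12, edgeR adjusted p = 0.100) and by −0.05 with OSMI added (SE 0.12, edgeR adjusted p = 0.822).

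Of 20 mitogen response genes, 3 rose and 4 fell with rhWnt3a, led by Spry1 (3.60), Dusp4 (2.25) and Fos (−1.59). With OSMI added 3 rose, namely Fosl1 (1.25), Egr1 (0.84) and Etv5 (0.80), and none fell, and between both treatments and vehicle 4 rose and 2 fell, led by Spry1 (3.06), Dusp4 (2.42) and Etv1 (−1.21). Of 18 quiescence and FOXO genes, 1 rose and 5 fell with rhWnt3a, led by Gas1 (−1.74), Gas6 (−1.61) and Ptprd (1.30). With OSMI added 2 rose and 2 fell, led by Hes1 (−2.24), Cited2 (1.01) and Ccng2 (−0.67), and between both treatments and vehicle 2 rose and 5 fell, led by Ptprd (2.02), Gas1 (−1.92) and Hes1 (−1.86).

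Of 10 tested Wnt target genes, 5 rose and none fell with rhWnt3a, led by Tnfrsf19, Axin2 and Tcf7. Tnfrsf19 had 1 to 3 counts with vehicle and 86 to 104 with rhWnt3a (edgeR adjusted p = 8.8e-05), Axin2 differed by 5.06 on the log2 scale (SE 0.35, edgeR adjusted p = 3.7e-05), and Tcf7 had 1 to 4 and 11 to 19 counts (edgeR adjusted p = 0.0130). In the same libraries Ccnd1 and Myc had log2 differences of −0.15 and −0.02, and that of Myc was 0.31 without vehicle replicate 3. With OSMI added a single gene of the list was called, Tnfrsf19, which fell by 2.32 to 13 to 30 counts. Between both treatments and vehicle 3 rose and 1 fell, led by Axin2 (4.55), Tnfrsf19 (edgeR adjusted p = 0.0027) and Nkd2 (1.19).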

How the data were processed

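Poly-A RNA of 9 ST2 libraries, 3 a group, was sequenced. Per the labels, the processing notes name CASAVA, fastp, HISAT2 2.0.5, featureCounts 1.5.0-p3 and the build mm10, and the strand setting of the counting is not given in the sources used here. The authors deposited a table with whole-number counts per gene, not normalized, and FPKM values made from the counts and a gene length given in the same table. Its 15 columns of the authors' own comparisons (fold changes and p-values) were not used.

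The analysis used edgeR 4.0.16 (R 4.3.3) on the counts. The default filterByExpr (minimum count 10, minimum total 15) left 14004 genes, libraries were scaled by TMM, and a fit of all 9 libraries on the 3 groups (glmQLFit, common dispersion 0.0452) gave 3 two-sided comparisons with glmQLFTest, adjusted by Benjamini-Hochberg over all genes within each. SEs came from the fit. CPM and RPKM used TMM-scaled totals, RPKM the deposited gene length, and log2 CPM for correlations a prior count of 2. Intervals for single counts were not computed, and limits from 3 counts cover counting error only. The fit was tested on simulated data. DESeq2 1.42.0 and the other alternatives are named in the closing section.

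The members and lists were chosen with earlier results of these data known. All 10 members are reported, of each pathway list the called genes (at most the 3 of largest log2 change a comparison), and Cdk2, Cdk4, Cdk6, Cdkn2a, Cdkn2b, Cdkn2d, Rb1, E2f1, Mdm2, Mki67 and Axin2 in any case. Cdkn3, Ccnb1, Cdc20, Cdk1, the stromal markers and the genes that overlap or flank a member were named outside this rule, after their values were seen. The 3 genes nearest to a member were taken by Pearson's r. Exon overlaps and near-identical sequence (97% over 100 bases, BLAST 2.17.0) were read from GENCODE M21, and promoters from RefSeq. Samples carry replicate numbers that share no stated origin, so the numbers were not taken to pair the samples. Same-numbered libraries deviated from their group means with mean correlations of −0.18, 0.13 and −0.31, which cannot decide whether they are paired.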

Additional observations from a re-analysis of the deposited data

How the results depend on the processing

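Over 27 pairs of member and comparison, 443 of 486 alternative values kept the sign and the side of the call. In what follows the share of all tested genes called in the same setting stands in parentheses. With rhWnt3a against vehicle no member was called, and this moved to 1 (18.1%) when the 3 libraries that lay apart were left out. With OSMI added to rhWnt3a, 1 member was called (4.74%), against 2 with RLE size factors (4.99%), 3 with upper-quartile factors (4.96%), 0 without a scaling factor (4.87%), 2 without a count filter (5.37%), 3 with at least 10 counts in every library (5%), 0 in a fit of the 6 libraries alone (2.55%), 4 with DESeq2 (4.48%), and 5 at an unadjusted p under 0.05 with the fold threshold (16.2%). At a log2 fold threshold of 1, 0 members were called, and the share of all genes at that threshold was not computed. Leaving out single libraries gave 0 to 3, with 3 (Ccnd3, Cdkn1a and Myc) without vehicle replicate 3 (5.33%). Between both treatments and vehicle, where none was called (14.2%), 1 was without a scaling factor (15.3%), 1 without a count filter (9.3%), 1 with the 6 libraries alone (12.7%) and 1 with DESeq2 (8.57%), Ccnd2 each time, then 4 without the 3 libraries that lay apart (23.7%), 2 without a fold threshold (15.3%), 2 at an unadjusted p with the fold threshold (22.8%), and 0 to 2 when single libraries were left out, with Cdkn1b and Myc called without vehicle replicate 3 (12.9%) and Ccnd2 without rhWnt3a replicate 2 (16.2%). The cause of these differences was not tested. A sign turned only for Myc with rhWnt3a against vehicle (−0.02, against −0.18 to 0.31 when single libraries were left out and 0.25 without the 3 that lay apart) and for Ccne1 with OSMI added (0.05, against −0.042 to 0.24 when single libraries were left out). Cyclin shares from the deposited FPKM equal those from RPKM by construction, since the library scale cancels, and say nothing of their stability.

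In the fit with a replicate block (the number in the titles), the counts of called members were 0, 0 and 0 (1230, 664 and 1986 genes in all became 809, 233 and 1297), Ccnd3 with OSMI added had a log2 difference of −0.54 with an edgeR adjusted p of 0.0967, and Myc with rhWnt3a against vehicle was at 0.034. Single same-numbered pairs correlated at −0.49 to 0.44. Since a single library lay apart in every group, these values cannot show whether same-numbered samples share an origin. The spread of 3 libraries a group limits differences of the size seen here, and 40 to 94 counts a library limit the E cyclins.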

Other observations

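Near the inhibitors without a count lie genes that are read in every library, though the genes closest to Cdkn1c had few or no counts. Mtap, the protein-coding gene nearest to the pair of Cdkn2a and Cdkn2b on chromosome 4 (89137122 to 89181081), had 4343 to 9829 counts a library. Around Cdkn1c on chromosome 7, Nap1l4 had 1472 to 2231, Cars 2670 to 3538 and Osbpl5 1266 to 1992 counts. Closer to it, Kcnq1 had 0 to 1, Phlda2 0 to 2 and Slc22a18 1 to 14.

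The spread between libraries of one group differed from member to member. On the log2 CPM scale the SD of the 3 vehicle libraries was 0.07 for Ccnd3, 0.10 for Cdkn1b, 0.48 for Myc and 0.45 for Ccne1. With rhWnt3a it was 0.05 for Myc and 0.51 for Ccnd2, and with rhWnt3a and OSMI 0.04 for Ccnd1 and 0.36 for Ccne1.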
